A study of Mus musculus with 19 samples.

Results

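The genes described here are those of the constitutive proteasome in the mouse. They were taken as the protein-coding genes whose symbol is *Psma*, *Psmb*, *Psmc*, *Psmd*, *Psme*, *Psmf* or *Psmg* followed by a number, leaving out the inducible catalytic subunits *Psmb8*, *Psmb9* and *Psmb10*. This gave 45 of the 56980 genes counted. RNA was sequenced from CD11b+ cells, which in the brain are mainly microglia, after magnetic sorting (MACS) from the brains of 19 male mice aged 3 to 4 months. The mice were *PARK7*/DJ-1 KO animals, which carry a gene-trap allele of *Park7* on a background crossed back to C57BL/6NCrl, or their wildtype littermates. They received LPS, a component of bacterial outer membranes, as a single intraperitoneal dose of 4 μg/g body weight, or PBS as vehicle, 6 h before sampling. The groups held 5 wildtype and 5 KO mice after LPS, and 4 wildtype and 5 KO mice after PBS. The gene trap is present in every cell of the KO mice and is not limited to microglia. The questions addressed for the proteasome genes were how their RNA levels changed after LPS in each genotype, and whether they differed between genotypes.

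The proteasome is the protease complex that degrades ubiquitin-tagged proteins. Its 20S core is a barrel of stacked rings of alpha and beta subunits, with the proteolytic sites on the beta subunits encoded by *Psmb5*, *Psmb6* and *Psmb7*. The 19S regulatory particle sits on the ends of the core and has a base with ATPases that unfold substrates (*Psmc* genes) and a lid that removes ubiquitin. In immune cells the 3 constitutive catalytic subunits can be replaced by inducible counterparts, encoded by *Psmb8*, *Psmb9* and *Psmb10*, and the core can bind the activator PA28, which is built from the products of *Psme1* and *Psme2*. Microglia, the resident macrophages of the brain, use the proteasome in antigen processing and in the control of NF-kB signaling.

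The libraries held 11936364 to 22788884 counts each. *Park7*, the trapped gene, lay between 0.457 and 5.38 CPM (counts scaled to the normalized library size) in the KO libraries and between 20.6 and 32.1 CPM in the wildtype libraries, so the labels of genotype fit its level in all libraries. Markers of microglia had a summed level of 22240 to 34920 CPM over 7 genes in wildtype mice at PBS and 10350 to 16360 CPM after LPS. In the KO mice it was 23310 to 35890 CPM at PBS and 10650 to 16450 CPM after LPS. In both genotypes 6 of the 7 were lower after LPS. The 4 monocyte markers moved the other way and were all higher after LPS, with a sum of 25.9 to 41.3 CPM against 162 to 298 CPM in wildtype mice and 23.4 to 33.8 CPM against 107 to 287 CPM in KO mice. Of the 5 neutrophil markers, 2 were higher after LPS in wildtype and 3 in KO mice, and their sum was at most 236 CPM. Markers of oligodendrocytes (4 genes) varied between libraries of every group, from 477 to 11130 CPM, and none was called after LPS. Of the 4 markers of border-associated macrophages, 2 were lower after LPS in each genotype, with sums of 365 to 465 CPM at PBS and 204 to 408 CPM after LPS in wildtype mice and of 348 to 453 and 199.8 to 357 CPM in KO mice. Of the 3 endothelial markers, 1 was lower in each genotype (sums of 236 to 747 and 104 to 466 CPM in wildtype, 316 to 668 and 55.7 to 502 CPM in KO mice). One of 4 astrocyte markers was higher in each genotype, with sums of 464 to 2613 and 461 to 1977 CPM in wildtype mice and 363 to 2046 and 156 to 3925 CPM in KO mice. One of 4 neuronal markers was also higher in each, with a sum of at most 93.8 CPM in any library. The sum over the lymphocyte markers was at most 2.35 CPM. No defining marker of these lists was at 0 in every library.

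Of the 45 genes, 44 passed the filter on low counts and were tested, as were 18739 genes in all. The exception was *Psmb11*, the beta subunit of the thymus proteasome, which had at most 2 counts in any library. *Psma8*, an alpha subunit known from the testis, was tested at a low level of 1.51 to 5.73 CPM. Level is best compared between genes after division by length, and the catalytic subunits differed on that scale. In wildtype mice at PBS, *Psmb6* stood at 45.7 ± 1.19 CPM per kb of transcript, *Psmb7* at 30.7 ± 1.21 and *Psmb5* at 6.57 ± 0.737 CPM per kb (SD, n = 4 each). The same order held per kb of coding sequence, with values of 66.4, 42.9 and 14.1 CPM per kb.

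Promoter windows of 3 activator genes and of *Psmb6*, a catalytic subunit gene, are shown as examples. RefSeq promoter windows on GRCm38.p6, from 250 bases before to 50 bases after the start, were matched for 37 of the 45 genes (40 windows). Both strands were searched for 4 motifs, and matched letters are written in capitals in the windows of *Psme1*, *Psme2*, *Psme3* and *Psmb6*. The windows are chr14:55578244-55578543 on the plus strand for *Psme1*, chr14:55590972-55591271 on the minus strand for *Psme2*, chr11:101315963-101316262 on the plus strand for *Psme3* and chr11:70525107-70525406 on the plus strand for *Psmb6*.
Psme1: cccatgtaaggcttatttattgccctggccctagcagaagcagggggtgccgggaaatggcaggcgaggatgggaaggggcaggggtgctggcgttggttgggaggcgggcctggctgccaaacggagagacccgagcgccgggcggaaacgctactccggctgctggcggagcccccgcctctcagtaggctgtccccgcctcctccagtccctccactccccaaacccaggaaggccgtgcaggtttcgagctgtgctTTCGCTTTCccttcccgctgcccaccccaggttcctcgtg
Psme2: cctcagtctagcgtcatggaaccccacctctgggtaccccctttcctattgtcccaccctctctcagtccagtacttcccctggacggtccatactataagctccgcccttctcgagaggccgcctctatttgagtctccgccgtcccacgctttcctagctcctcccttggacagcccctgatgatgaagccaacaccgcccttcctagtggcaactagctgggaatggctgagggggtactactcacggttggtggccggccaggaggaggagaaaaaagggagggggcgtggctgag
Psme3: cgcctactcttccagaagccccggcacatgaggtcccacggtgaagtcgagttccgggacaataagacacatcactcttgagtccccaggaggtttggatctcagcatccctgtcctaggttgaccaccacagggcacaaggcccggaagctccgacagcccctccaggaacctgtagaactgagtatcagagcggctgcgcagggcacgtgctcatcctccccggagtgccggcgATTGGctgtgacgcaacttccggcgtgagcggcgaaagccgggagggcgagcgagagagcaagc
Psmb6: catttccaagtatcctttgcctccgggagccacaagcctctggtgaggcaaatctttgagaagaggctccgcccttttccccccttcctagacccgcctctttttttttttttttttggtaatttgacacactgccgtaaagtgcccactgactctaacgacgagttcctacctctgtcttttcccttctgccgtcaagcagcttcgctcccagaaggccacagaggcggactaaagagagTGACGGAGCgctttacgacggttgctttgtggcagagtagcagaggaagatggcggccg
The capitals mark a match of the interferon-stimulated response element core, GAAANNGAA, on the opposite strand in *Psme1*, of CCAAT, the NF-Y box, on the opposite strand in *Psme3*, and of the antioxidant response element core, TGACNNNGC, in *Psmb6*. The window of *Psme2* shown held none of the 4 motifs, nor did its other window, chr14:55591052-55591351 on the minus strand.

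Across the members, the interferon-stimulated core was found in 7 of 40 windows (17.5%), against 8.56% of all 32851 promoters in the RefSeq table. The antioxidant core was found in 6 windows (15%, against 12.4% of all promoters), in *Psmb5*, *Psmb6*, *Psmc6*, *Psmd9*, *Psmd12* and *Psme4*. CCAAT was found in 13 (32.5%, against 37.4%), and the gamma-activated sequence, TTCNNNGAA, in 2 (5.00%, against 8.30%). Matches of the interferon-stimulated core and the gamma-activated sequence overlapped in 54 of all 32851 promoters. Genes with a match included *Psmb3*, *Psmb4*, *Psmc2*, *Psmd4*, *Psmd9*, *Psme1* and *Psmg4* for the interferon-stimulated core. A match gives letters in a window and says nothing about binding. Whether matches went with the response to LPS was not tested.

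Nearly all constitutive proteasome genes had a higher RNA level after LPS. In wildtype mice, 40 of the 44 tested genes were higher after LPS than after PBS, where 22.0% of all genes tested were, and 0 were lower, where 19.7% of all genes were (edgeR quasi-likelihood test, adjusted p-value under 0.05). In KO mice, 38 of 44 were higher (24.2% of all genes) and 0 were lower (21.9% of all genes). All 38 were also higher in wildtype mice. Over the 44 genes, the median log2FC was 0.71 in wildtype and 0.70 in KO mice, beside medians over all genes tested of -0.06 and -0.01. With a fold-change limit of |log2FC| of at least 0.5, 34 were higher in wildtype (18.4% of all genes) and 32 in KO mice (20.1% of all genes). All mice after LPS lay above all mice at PBS for 39 genes in wildtype (20.8% of all genes) and for 30 in KO mice (16.2% of all genes). In bulk samples, fewer cells of a type and less RNA per cell cannot be told apart, and how far the shifts in these cell-type markers entered these values was not tested. Without the library with the highest oligodendrocyte markers in each group, a setting chosen after seeing the data, 34 genes were higher in wildtype and 35 in KO mice and 0 were lower.

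**Figure D1:**
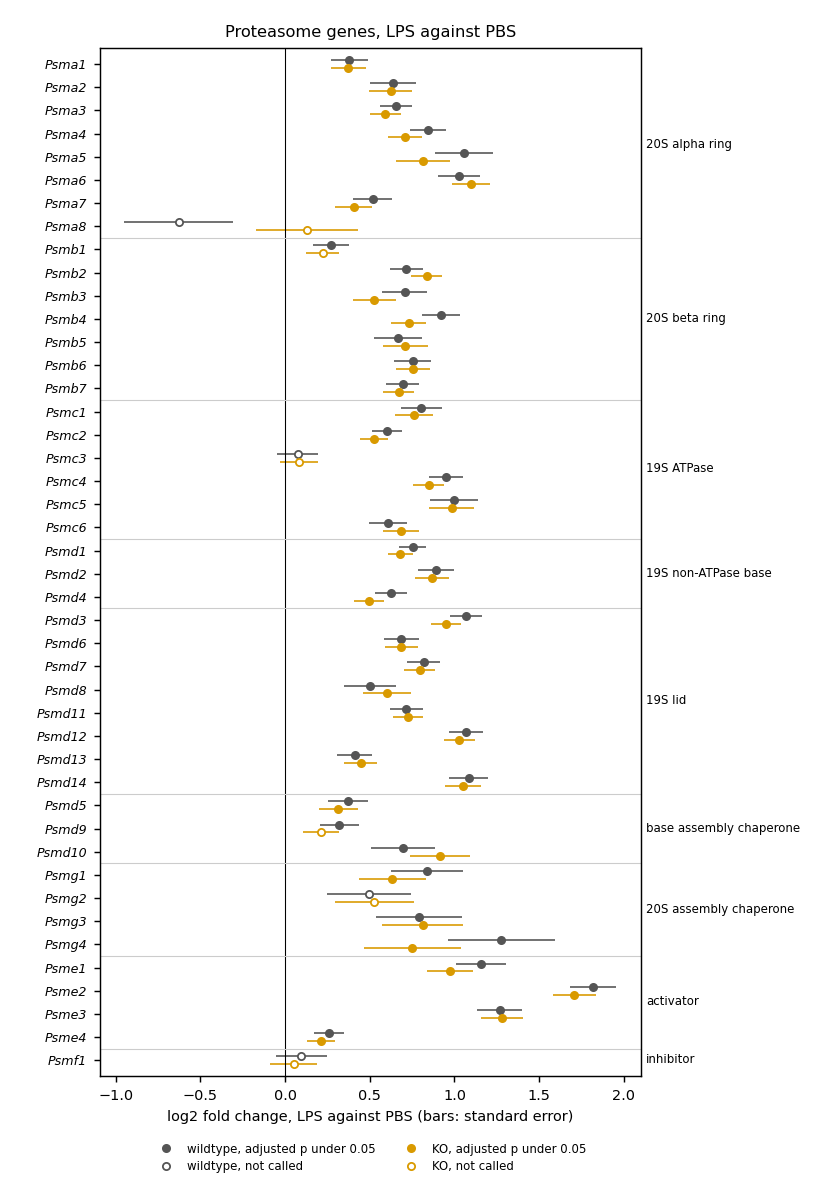
The log2 fold change of 44 proteasome genes after LPS against PBS (x axis; bars show the standard error), with one row per gene grouped by role (y axis), in wildtype (grey) and KO mice (yellow). Filled circles have an adjusted p-value under 0.05 in edgeR's test; apart from *Psma8* in wildtype mice, all 44 genes lie above 0 in both genotypes, and *Psme2* has the largest value with 1.82 in wildtype and 1.71 in KO mice.

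Summed over all 45 genes, the level in wildtype mice was 1735 ± 106 CPM (SD, n = 4) at PBS and 2915 ± 178 CPM (SD, n = 5) after LPS. In KO mice it was 1794 ± 166 CPM at PBS and 2931 ± 238 CPM after LPS (SD, n = 5 each). Every LPS library of either genotype (2634 to 3224 CPM) lay above every PBS library (1609 to 2054 CPM). The order of the responses was alike in both genotypes, which share no mouse, with Pearson's r = 0.905 and Spearman's rho = 0.914 across the 44 genes. The points share gene length and mean level, and genes are not independent replicates.

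Most genes of the alpha and beta rings of the core were higher after LPS. Of the 8 alpha subunit genes, 7 were higher after LPS in each genotype, with median log2FC values of 0.65 (wildtype) and 0.61 (KO), led by *Psma6* (1.03 and 1.10) and *Psma5* (1.06 and 0.81). The one not called was *Psma8* (-0.63 and 0.13), which was at -0.39 in wildtype mice without the wildtype PBS replicate 1, and in KO mice ran from -0.08 without the KO LPS replicate 2 to 0.32 without the KO PBS replicate 2. All 7 tested beta subunit genes were higher in wildtype and 6 in KO mice, with a median of 0.71 in each. *Psmb1*, a beta subunit without a catalytic site, changed least, with a log2FC of 0.27 in wildtype (adjusted p = 0.0443 in edgeR) and 0.22 in KO mice (adjusted p = 0.0728). Its call in wildtype was lost in 7 of the 19 fits without 1 mouse each, in which the adjusted p-value from edgeR's test reached 0.0876. These fits left out the wildtype PBS replicates 2, 3 and 4, the wildtype LPS replicates 1, 4 and 5, or the KO PBS replicate 1, and gave log2FC values from 0.25 to 0.29. The wildtype call was also lost in 6 of the 8 other settings run, among them DESeq2 (adjusted p = 0.130). In KO mice *Psmb1* passed without the KO PBS replicate 2 (0.32) or the KO LPS replicate 3 (0.27).

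The catalytic subunits were taken one by one. *Psmb5* (ENSMUSG00000022193, GRCm39 chromosome 14, 54850776 to 54855481, minus strand), the subunit with chymotrypsin-like activity, had 11.2, 12.1, 9.39 and 12.05 CPM in wildtype mice at PBS and 16.5, 18.0, 17.0, 17.7 and 19.4 CPM after LPS. In KO mice *Psmb5* had 10.8, 13.2, 11.9, 9.53 and 9.13 CPM at PBS and 19.8, 20.5, 16.2, 14.4 and 18.3 CPM after LPS. The LPS values lay above the PBS values without overlap in both genotypes. The log2FC of *Psmb5* was 0.66 (adjusted p = 0.000857 in edgeR, SE 0.142) in wildtype and 0.71 (adjusted p = 0.000208, SE 0.133) in KO mice.

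*Psmb6* (ENSMUSG00000018286, chromosome 11, 70416183 to 70418684, plus strand), the subunit with caspase-like activity, had 48.2, 47.3, 45.7 and 48.3 CPM in wildtype mice at PBS and 78.7, 67.4, 72.5, 88.2 and 92.8 CPM after LPS. Its values in KO mice were 49.3, 57.8, 49.5, 48.1 and 44.5 CPM at PBS and 86.9, 89.5, 76.5, 73.2 and 94.5 CPM after LPS. No LPS library came within the range of the PBS libraries. *Psmb6* rose with a log2FC of 0.75 (adjusted p = 1.46e-05 in edgeR, SE 0.108) in wildtype and 0.76 (adjusted p = 5.28e-06, SE 0.101) in KO mice. *Psmb7* (ENSMUSG00000026750, chromosome 2, 38478044 to 38534099, minus strand), the subunit with trypsin-like activity, had 37.0, 36.4, 33.8 and 35.5 CPM in wildtype mice at PBS and 63.7, 51.9, 56.8, 58.1 and 58.0 CPM after LPS. In KO mice *Psmb7* had 36.6, 40.8, 34.7, 35.2 and 31.7 CPM at PBS and 53.3, 62.5, 54.3, 50.7 and 64.3 CPM after LPS. Again the groups did not overlap in either genotype, and the log2FC of *Psmb7* was 0.69 (adjusted p = 1.10e-05 in edgeR, SE 0.097) in wildtype and 0.67 (adjusted p = 5.95e-06, SE 0.090) in KO mice. Processed pseudogenes of *Psmb5*, *Psmb6* and *Psmb7* had at most 1 count in any library.

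Most genes of the regulatory particle were also higher after LPS. Of the 6 ATPase genes, 5 were higher in each genotype, with median log2FC values of 0.70 (wildtype) and 0.72 (KO) and the largest values in *Psmc5* (1.00 and 0.98) and *Psmc4* (0.95 and 0.85). *Psmc3* was the ATPase gene not called, with a log2FC of 0.07 (SE 0.118) in wildtype and 0.08 (SE 0.111) in KO mice. Without 1 mouse at a time the value ran from 0.03 (without the wildtype PBS replicate 2) to 0.14 (without replicate 1 of that group) in wildtype mice, and from 0.0084 to 0.14 in KO mice (without the KO LPS replicates 2 and 3). Its level was 42.7 to 55.4 CPM at PBS and 48.3 to 54.2 CPM after LPS in wildtype mice. The 3 non-ATPase genes of the base, *Psmd1* and *Psmd2*, which encode its scaffold, and *Psmd4*, which encodes a ubiquitin receptor, were higher in both genotypes. They had medians of 0.75 and 0.68, with *Psmd2* at 0.89 in wildtype and 0.87 in KO mice. All 8 lid genes were higher in both genotypes with no overlap between LPS and PBS mice, and their medians were 0.77 in wildtype and 0.76 in KO mice. For *Psmd8*, the KO LPS replicate 5 was at 142 CPM, against 69.9 to 88.4 CPM in the other KO mice after LPS. Its log2FC in KO mice ran from 0.41 to 0.71 without 1 mouse at a time. The largest values were those of *Psmd14*, the lid's deubiquitinase (1.08 and 1.05), *Psmd12* (1.07 and 1.03) and *Psmd3* (1.07 and 0.95), and the smallest was that of *Psmd13* (0.41 and 0.45).

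Genes of the assembly chaperones, which help build the particles and leave them, had log2FC values from 0.21 to 1.28. Of the base chaperones *Psmd5*, *Psmd9* and *Psmd10*, all 3 were higher in wildtype and 2 in KO mice, with medians of 0.37 and 0.32. *Psmd10*, also known as gankyrin, had the largest values (0.69 and 0.91). *Psmd9* was at 0.32 in wildtype (adjusted p = 0.0311 in edgeR) and 0.21 in KO mice (adjusted p = 0.117), and its wildtype call was lost without any 1 of the wildtype PBS replicates 1, 2 and 3 or the wildtype LPS replicates 1, 2 and 5, at log2FC values from 0.31 to 0.33. In KO mice it passed without the KO LPS replicates 1 (0.28) or 4 (0.29). The call of *Psmd5* in KO mice (0.32) was lost without the KO PBS replicate 4 (0.24) or the KO LPS replicates 2 or 5 (0.28 each), and that in wildtype mice (0.37) without the wildtype LPS replicate 5 (0.31). Among the 8 other settings run, the wildtype call was lost in 5 for *Psmd9* and in 3 for *Psmd5*, and the KO call of *Psmd5* in 4. Of the 4 chaperones of the 20S core, 3 were higher in each genotype, with medians of 0.81 in wildtype and 0.69 in KO mice, and for none of them did the KO groups separate. *Psmg2*, the one not called, had a log2FC of 0.50 (SE 0.249) in wildtype and 0.53 (SE 0.233) in KO mice, and it passed in KO mice without 1 of the KO LPS replicates 1, 3 or 4 (0.63 to 0.66), while without the KO LPS replicate 2 it was at 0.35.

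*Psmg4* (ENSMUSG00000071451, chromosome 13, 34346937 to 34362166, plus strand), a 20S chaperone gene, was among the 4 largest rises in wildtype mice but rested on 17 to 87 counts per library. It had 1.36, 1.03, 1.18 and 1.30 CPM in wildtype mice at PBS and 2.80, 2.50, 3.07, 3.38 and 3.07 CPM after LPS. In KO mice *Psmg4* had 1.84, 1.80, 1.73, 1.05 and 1.46 CPM at PBS and 1.86, 4.97, 1.32, 2.74 and 2.38 CPM after LPS. The wildtype groups were apart and the KO groups overlapped, with 1 KO library after LPS well above the others. The log2FC was 1.28 (adjusted p = 0.00284 in edgeR, SE 0.315) in wildtype and 0.75 (adjusted p = 0.0387, SE 0.287) in KO mice. In KO mice the call was lost without the KO LPS replicate 2 (log2FC 0.39), and also without the KO LPS replicate 4 (0.75) or the KO PBS replicates 4 (0.63) or 5 (0.74). That call was lost in 3 of the 8 other settings run too. The interaction contrast of *Psmg4*, the response in KO minus that in wildtype mice, was -0.53 (adjusted p = 1.00 in edgeR, SE 0.422), and it was -0.88 without the KO LPS replicate 2.

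Activators of the core had the highest median log2FC of the groups by role, 1.21 in wildtype and 1.13 in KO mice, and all 4 were higher in both genotypes, although *Psme4* had the smallest rise among the genes called (0.26 and 0.21). *Psme2* (ENSMUSG00000079197, chromosome 14, 55824895 to 55829173, minus strand), which encodes the beta subunit of PA28, led all 44 genes. Its level was 24.1, 21.2, 21.7 and 20.3 CPM in wildtype mice at PBS and 63.6, 57.6, 72.6, 91.5 and 99.4 CPM after LPS. In KO mice *Psme2* had 22.0, 21.4, 22.1, 19.5 and 19.4 CPM at PBS and 67.4, 70.2, 65.3, 65.6 and 72.7 CPM after LPS. All LPS values exceeded all PBS values, and the LPS values of wildtype mice were spread on both sides of those of KO mice. The log2FC of *Psme2* was 1.82 (adjusted p = 8.97e-09 in edgeR, SE 0.137) in wildtype and 1.71 (adjusted p = 3.92e-09, SE 0.126) in KO mice, that is 3.52-fold and 3.27-fold.

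*Psme1* (ENSMUSG00000022216, chromosome 14, 55815190 to 55822034, plus strand), which encodes the alpha subunit of PA28 and lies next to *Psme2*, had 67.6, 49.1, 60.6 and 50.9 CPM in wildtype mice at PBS and 132, 99.1, 119, 158 and 128 CPM after LPS. In KO mice *Psme1* had 58.8, 80.1, 63.7, 53.2 and 51.3 CPM at PBS and 111, 135, 128, 113 and 116 CPM after LPS. The LPS and PBS groups were apart in both genotypes, at a log2FC of 1.16 (adjusted p = 3.57e-06 in edgeR, SE 0.147) in wildtype and 0.97 (adjusted p = 8.50e-06, SE 0.136) in KO mice. Whether reads of neighbouring genes entered these values was not tested. *Psme2b*, a near-identical copy of *Psme2*, had 44 to 277 counts per library and was lower after LPS in wildtype mice (log2FC -0.75, adjusted p = 0.0183 in edgeR). *Emc9*, which overlaps *Psme1* on the opposite strand, had 16 to 122 counts and was also lower (log2FC -1.63). *Rnf31*, which overlaps *Psme2* on the opposite strand, had 716 to 1729 counts and was higher (log2FC 1.03). The libraries were stranded, and whether the counts used strand is not given in the sources used here.

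*Psme3* (ENSMUSG00000078652, chromosome 11, 101206777 to 101215813, plus strand), which encodes the nuclear activator PA28-gamma, had 81.0, 77.5, 80.8 and 62.9 CPM in wildtype mice at PBS and 175, 174, 205, 173 and 182 CPM after LPS. In KO mice *Psme3* had 95.3, 97.9, 82.9, 69.1 and 66.6 CPM at PBS and 217, 224, 187, 160 and 213 CPM after LPS. Both genotypes showed a clear gap between the LPS and PBS mice. The log2FC of *Psme3* was 1.27 (adjusted p = 3.75e-07 in edgeR, SE 0.133) in wildtype and 1.28 (adjusted p = 1.00e-07, SE 0.123) in KO mice.

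*Psme4* (ENSMUSG00000040850, chromosome 11, 30721725 to 30830376, plus strand), which encodes the activator PA200, had 134, 116, 134 and 124 CPM in wildtype mice at PBS and 164, 132, 144, 160 and 160 CPM after LPS. In KO mice *Psme4* had 121, 136, 130, 146 and 146 CPM at PBS and 142, 161, 171, 159 and 153 CPM after LPS. Here the LPS and PBS groups overlapped in both genotypes. The log2FC was 0.26 (adjusted p = 0.0251 in edgeR, SE 0.089) in wildtype and 0.21 (adjusted p = 0.0462, SE 0.084) in KO mice. The wildtype call of *Psme4* was lost in 4 of 19 fits without 1 mouse each (without the wildtype PBS replicate 2 or the wildtype LPS replicates 1, 4 or 5) and the KO call in 9 (without the wildtype PBS replicates 1 or 3, the KO PBS replicates 1, 2 or 3, or the KO LPS replicates 2 to 5), with log2FC values of at least 0.17. Other settings also removed the call of *Psme4*, 5 of the 8 run in wildtype and 6 of the 8 in KO mice. *Psmf1*, which encodes the proteasome inhibitor PI31, was not called, with a log2FC of 0.10 (SE 0.149) in wildtype and 0.05 (SE 0.140) in KO mice. It ran from 0.03 (without the wildtype PBS replicate 4) to 0.22 (without replicate 1 of that group) in wildtype mice, and from -0.07 (without the KO LPS replicate 3) to 0.12 (without replicate 5 of that group) in KO mice. Its level was 23.7 to 36.1 CPM at PBS and 27.1 to 35.1 CPM after LPS in wildtype mice.

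**Figure D2:**
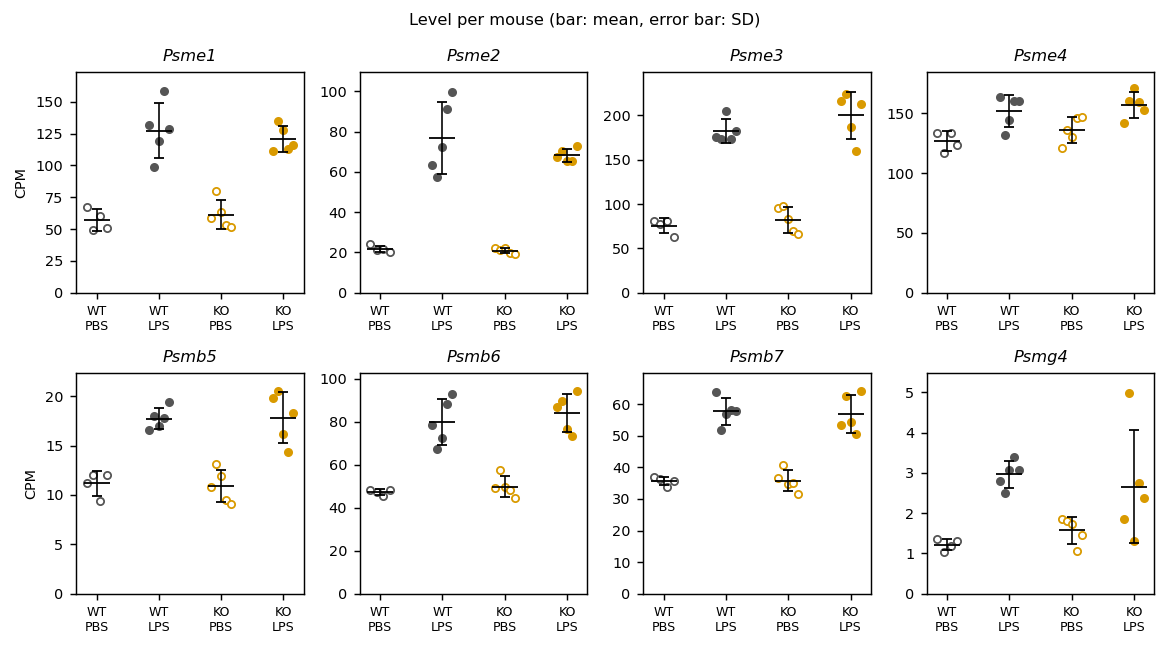
Level in CPM (y axis, from 0) of the activators *Psme1* to *Psme4*, the catalytic subunits *Psmb5* to *Psmb7* and *Psmg4* in each mouse, by genotype and treatment (x axis), with open circles for PBS and filled circles for LPS. Horizontal bars show means and error bars show SD (n = 4 for wildtype mice at PBS, n = 5 for the other groups); *Psme2* reached 57.6 to 99.4 CPM in wildtype mice after LPS against 20.3 to 24.1 CPM at PBS.

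The inducible catalytic subunits were compared with the constitutive ones they replace, since the ratio within a library does not depend on library scaling. *Psmb8* was higher after LPS in wildtype (log2FC 0.81) and in KO mice (0.39, adjusted p = 0.0460 in edgeR), and so was *Psmb10* (0.85 and 0.79). *Psmb9* was not called (0.32 and 0.03). The KO call of *Psmb8* was lost in 12 of 19 fits without 1 mouse each, among them all that left out a KO LPS mouse, with the lowest log2FC, 0.29, without the KO PBS replicate 4. It was also lost in 7 of the 8 other settings run, among them DESeq2 (adjusted p = 0.0795) and the fit of only the groups compared (adjusted p = 0.0660 in edgeR). Counts per kb of transcript gave a *Psmb9*/*Psmb6* ratio of 0.422, 0.306, 0.407 and 0.3002 in wildtype mice at PBS and 0.276, 0.222, 0.279, 0.301 and 0.246 after LPS. In KO mice the ratio was 0.346, 0.364, 0.306, 0.304 and 0.296 at PBS and 0.194, 0.191, 0.238, 0.262 and 0.121 after LPS. The means were lower after LPS in both genotypes, with overlap in wildtype and none in KO mice. The difference in log2 ratio was -0.43 in wildtype (exact two-sided permutation test, p = 0.0318, adjusted p = 0.190) and -0.73 in KO mice (exact p = 0.00794, the smallest that 5 mice against 5 allow, adjusted p = 0.0952).

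The *Psmb8*/*Psmb5* ratio was 3.08 ± 0.820 (SD, n = 4) at PBS and 3.34 ± 0.478 (SD, n = 5) after LPS in wildtype mice, and 3.26 ± 0.457 and 2.699 ± 0.457 in KO mice (SD, n = 5 each). That of *Psmb10*/*Psmb7* was 0.772 ± 0.112 and 0.859 ± 0.104 in wildtype, and 0.702 ± 0.113 and 0.779 ± 0.137 in KO mice. Of the 12 comparisons of ratios made, 4 for each pair, none had an adjusted p-value under 0.05 in the exact permutation test, with 0.0952 the lowest. With groups of this size, 1 fully separated comparison alone could not fall under 0.05 after adjustment over the 12. That none passed therefore does not show that the ratios were unchanged. Between genotypes after LPS, the difference in log2 ratio was -0.31 for *Psmb8*/*Psmb5* (exact p = 0.0635, adjusted p = 0.190), -0.44 for *Psmb9*/*Psmb6* (exact p = 0.0556, adjusted p = 0.190) and -0.15 for *Psmb10*/*Psmb7* (exact p = 0.341, adjusted p = 0.438). Without 1 mouse at a time these differences ran from -0.395 to -0.24, from -0.54 to -0.26 and from -0.22 to -0.05. The smallest *Psmb9*/*Psmb6* and *Psmb10*/*Psmb7* differences (-0.26 and -0.05) came without the KO LPS replicate 5, and the *Psmb10*/*Psmb7* difference was -0.09 without the wildtype LPS replicate 4.

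**Figure D3:**
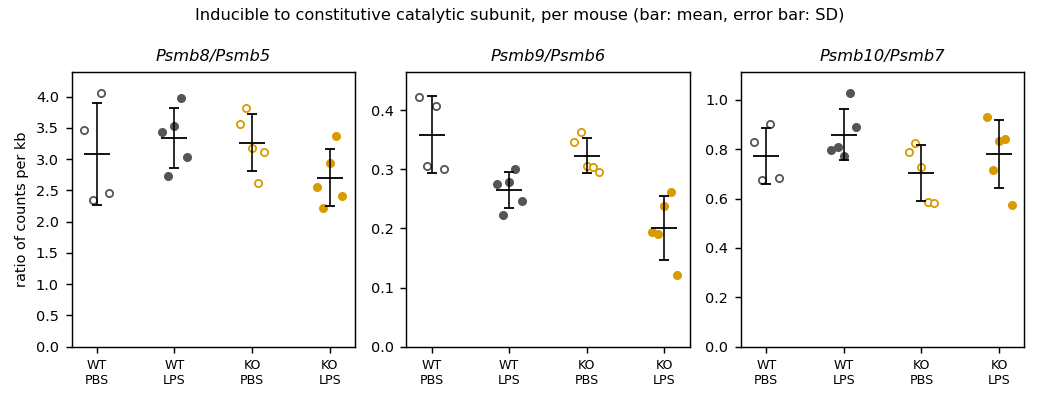
Ratio of an inducible to its constitutive catalytic subunit (y axis, counts per kb of transcript, from 0) in each mouse, by genotype and treatment (x axis), with open circles for PBS and filled circles for LPS, bars for means and error bars for SD. *Psmb9*/*Psmb6* lay between 0.121 and 0.262 in KO mice after LPS and between 0.296 and 0.364 at PBS, while the groups overlapped for the other pairs and for wildtype mice.

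Other genes of the ubiquitin-proteasome pathway, taken as a list of 31 genes of which 30 were found and tested, moved in both directions. In wildtype mice 20 of the 30 were higher after LPS and 2 lower (median log2FC 0.51), and in KO mice 22 were higher and 2 lower (median 0.47). The shares of all genes given for the members apply here too. Among the regulators of subunit transcription, *Nfe2l1*, a transcription factor that raises proteasome genes when proteasome activity falls, was at 0.98 in wildtype and 0.85 in KO mice, and *Nfe2l2*, the antioxidant response factor, at 1.01 and 1.09. *Ddi2*, the protease that cleaves the *Nfe2l1* product, was at 0.46 and 0.41, and *Vcp*, a segregase, at 0.49 and 0.39. *Ngly1*, the remaining gene of that group, was not called (-0.15 and -0.07), and its LPS values lay below its PBS values without overlap in wildtype mice. In that genotype it was at -0.10 without the wildtype LPS replicate 2, and it was called lower among genes with at least 10 counts in every library (-0.22, adjusted p = 0.0385 in edgeR). In KO mice *Ngly1* ran from -0.11 without the KO PBS replicate 4 to -0.0027 without the KO LPS replicate 1. Of the factors that bind the 19S particle, the ubiquitin receptor gene *Adrm1* was at 0.81 and 0.92, and the deubiquitinase gene *Usp14* at 0.82 and 0.90. *Uchl5*, the gene of another deubiquitinase of the 19S particle, was not called (0.19 and 0.23), with 0.10 in wildtype mice without the wildtype LPS replicate 3. *Sem1*, a small lid subunit outside the symbol rule, was at 0.70 and 0.82.

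The genes that fell were *Akirin2*, known for its part in the nuclear import of proteasomes (-1.47 in wildtype and -1.63 in KO mice), and *Ubqln2*, a shuttle factor that brings ubiquitinated proteins to the proteasome (-0.62 and -0.58). Other shuttle factors, *Rad23b* (0.76 and 0.81) and *Ubqln4* (0.94 and 0.97), rose. *Ubqln1* was at 0.27 in wildtype mice, where it was not called, and at 0.34 in KO mice, where it was called, a call lost in 9 of the 19 fits without 1 mouse each and in 6 of the 8 other settings. *Pomp*, the maturation factor of the 20S core, was not called (-0.13 and -0.18), with -0.04 in wildtype mice without the wildtype PBS replicate 1 and -0.04 in KO mice without the KO PBS replicate 2. Of the ubiquitin genes, *Rps27a* rose (0.82 and 0.93). *Ubb* was called in both genotypes (0.32 and 0.33), and without 1 mouse each the call was lost in 12 of 19 fits in wildtype and in 4 in KO mice, where it was at 0.196 without the KO LPS replicate 5. The call of *Ubb* was also lost in 7 of the 8 other settings in wildtype, among them DESeq2 (adjusted p = 0.0867), and in 3 in KO mice. *Uba1*, which encodes the main ubiquitin-activating enzyme, was at 0.67 and 0.59. None of the 30 genes was called between genotypes after LPS, at PBS or in the interaction.

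No constitutive proteasome gene was called between KO and wildtype mice. After LPS, an adjusted p-value under 0.05 in edgeR's test was reached by 0 of the 44 genes (0.0107% of all genes tested), and 0 had an unadjusted p-value under 0.05 (2.57% of all genes) or passed this together with |log2FC| of at least 0.5 (1.31% of all genes). At PBS the counts were likewise 0, beside 0.00534%, 1.04% and 0.800% of all genes. In the interaction contrast, 0 genes had an adjusted p-value under 0.05 (0% of all genes) and 0 an unadjusted one (0.961% of all genes). DESeq2 called 0 members in each of these comparisons. A p-value above the threshold does not show that levels were equal.

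The median log2FC of KO against wildtype mice over the 44 genes was 0.01 after LPS and 0.04 at PBS, with a median SE of 0.106 and 0.113. After LPS, 43 genes had a log2FC under 0.2 in size, and at PBS 41 did. The interval of 2 SE on each side of the log2FC lay within 0.5 of 0 for 39 of the 44 genes after LPS and for 39 at PBS. The genes with a wider interval after LPS were *Psma8*, *Psmd10*, *Psmg1*, *Psmg3* and *Psmg4*, and at PBS *Psma5*, *Psma8*, *Psmg2*, *Psmg3* and *Psmg4*. Values ranged after LPS from -0.17 for *Psme2* (SE 0.122) to 0.50 for *Psma8* (SE 0.305), and at PBS from -0.25 for *Psma8* (SE 0.318) to 0.37 for *Psmg4* (SE 0.314). For *Psma8* the interaction was 0.76 (adjusted p = 1.00 in edgeR, SE 0.440), on 23 to 110 counts per library. Several of these values moved by more than 1.5 times without 1 mouse. After LPS, *Psme2* was at -0.26 without the wildtype LPS replicate 2, at -0.10 without replicate 4 and at -0.06 without replicate 5 of that group, and *Psma8* was at 0.29 without the KO LPS replicate 2. At PBS, *Psma8* was at -0.01 without the wildtype PBS replicate 1, at -0.38 without the wildtype PBS replicate 2, at -0.44 without the KO PBS replicate 2 and at -0.10 without the KO PBS replicate 4, while *Psmg4* ran from 0.3004 to 0.48.

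**Figure D4:**
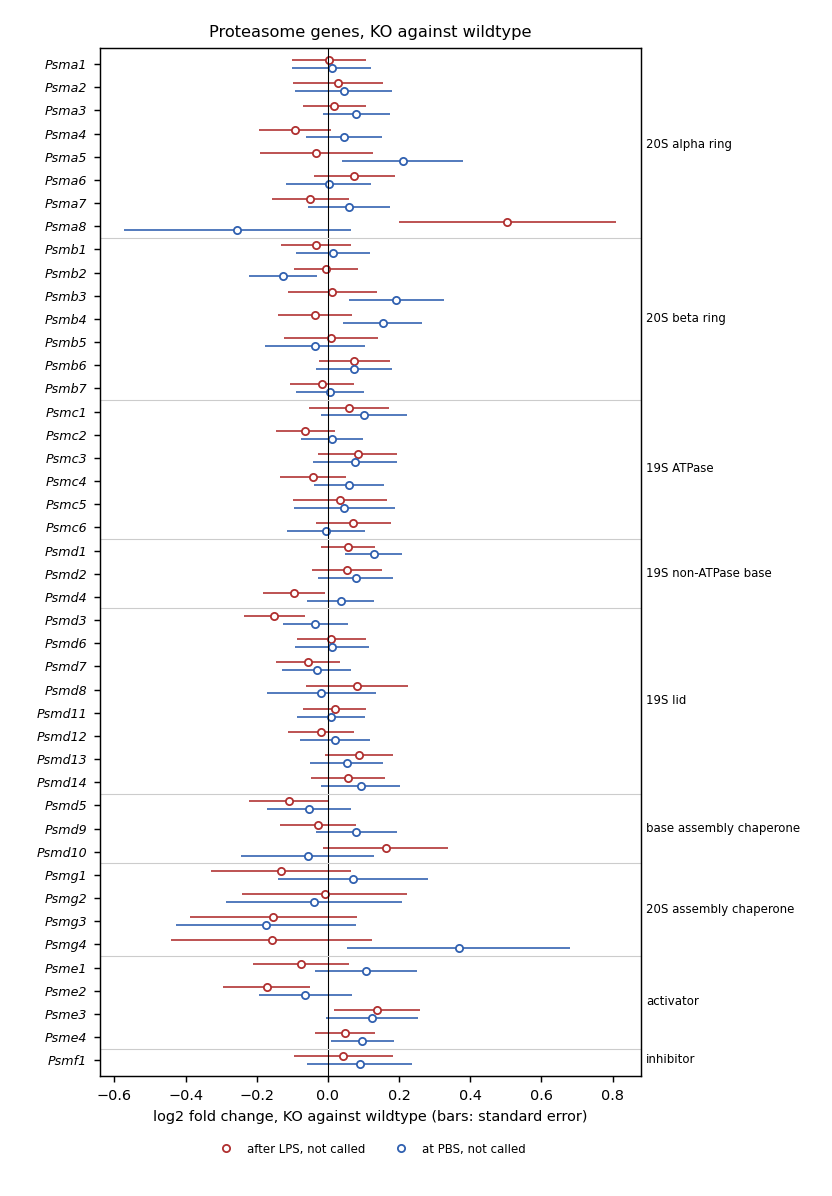
The log2 fold change of 44 proteasome genes in KO against wildtype mice (x axis; bars show the standard error), with one row per gene grouped by role (y axis), after LPS (red) and at PBS (blue). All circles are open because no gene had an adjusted p-value under 0.05 in edgeR's test; all but *Psma8* after LPS, and all but *Psma5*, *Psma8* and *Psmg4* at PBS, lie within 0.2 of 0.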

How the data were processed

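Ribosomal RNA was depleted by the authors before stranded total RNA libraries were made. Reads were trimmed (Cutadapt) and both aligned and counted by STAR (2.7.9a, from the submitters' processing notes) on GRCm39. The deposited values are raw counts per gene in 19 libraries (11936364 to 22788884 in total), and 0 columns lacked a sample. Within groups, all 36 library pairs exceeded sampling noise (chi-square per degree of freedom at least 6.5). Whether same-group mice shared a batch is not given in the sources used here.

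Counts were tested in R 4.3.3 with edgeR 4.0.16 (TMM normalization, filterByExpr with a minimum count of 10 and a minimum total of 15, quasi-likelihood test, all 19 libraries in 4 groups), with Benjamini-Hochberg adjustment over 18739 genes. The SE is the log2FC divided by the square root of F. CPM are counts scaled to the normalized library total. GENCODE M39 on GRCm39 named 56236 of 56980 genes. Ratios used the canonical transcript's length and exact permutation tests. Full values are given for *Psmb5* to *Psmb7*, *Psme1* to *Psme4* and the 4 largest rises and falls called in wildtype mice (there were no falls). The members and lists were chosen with earlier results of these data known. Some genes of the pathway list are counted in its totals but not reported singly here.

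Alternatives were DESeq2 1.42.0, its size factors, other filters, only the groups compared, a replicate block, removal of ribosomal RNA and mitochondrial genes, and fits without 1 mouse each. Same-numbered mice are different animals. The correlation of their deviations was not above 0.1 in every pair, so the numbers were not taken to pair them. Between PBS and LPS mice it had a mean of 0.325 (-0.042 to 0.576) in wildtype and 0.255 (0.027 to 0.544) in KO mice. Between genotypes the mean was -0.103 after LPS and -0.006 at PBS. Whether same-numbered mice of a genotype shared a batch was not tested.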

Additional observations from a re-analysis of the deposited data

Results flagged for a closer look

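The values of each gene in each group of mice were examined for 1 mouse far from the rest, in 176 groups for the proteasome genes and 12 for the ratios. Chance flags about 1 in 20 groups, and 6 were found. At PBS, *Psma2* was at 50.98 CPM in the wildtype replicate 1, against 44.12 to 44.89 CPM in the other 3 mice. *Psmd8* was at 55.7 CPM in the wildtype replicate 2, against 64.27 to 66.02 CPM. The KO replicate 2 at PBS was high for *Psma7*, with 36.68 CPM against 29.87 to 31.58 CPM in the others, and for *Psmc1*, with 38.29 CPM against 27.23 to 30.01 CPM. *Psmd12* was at 30.47 CPM in the KO replicate 5 at PBS, against 27.74 to 28.35 CPM. After LPS, *Psmd13* was at 44.52 CPM in the KO replicate 2, against 37.51 to 37.92 CPM in the other 4 mice.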

How the results depend on the processing

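The counts of proteasome genes higher after LPS stayed within 1.5 times the reported ones under every setting run, and 0 were lower or called between genotypes in any. In wildtype mice the count was 33 without a low-count filter, 35 with only the groups compared, 39 with DESeq2 and 36 to 40 in fits without 1 mouse each; in KO mice these were 33, 35, 38 and 35 to 40. With the replicate block the counts were 39 and 36, and the block removed the calls of *Psmd9* in wildtype mice and of *Psme4*, *Psmg4*, *Psmb8* and *Ubb* in KO mice, and that of *Ubb* in wildtype mice. Medians of the log2FC with each mouse left out ranged from 0.69 to 0.76 in wildtype and from 0.65 to 0.75 in KO mice. Across all settings, 7 members lost a call somewhere in wildtype (*Psma1*, *Psmb1*, *Psmd5*, *Psmd9*, *Psmd13*, *Psme4* and *Psmg3*) and 6 in KO mice (*Psma1*, *Psma7*, *Psmd5*, *Psme4*, *Psmg1* and *Psmg4*), and the cause was not tested. Values near 0 changed sign in a few fits. *Psmb9* in KO mice was -0.0129 with at least 10 counts in every library and -0.0189 to 0.142 without 1 mouse each. Without 1 mouse each, the difference in log2 *Psmb8*/*Psmb5* ratio between genotypes at PBS ranged from -0.0084 to 0.254. The same fits gave -0.0795 to 0.317 for *Psma8* and -0.0713 to 0.122 for *Psmf1* in KO mice. *Psmb11* could not be tested at this depth. No setting moved the median of all genes by more than 0.07 on the log2 scale.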
